A study of Mus musculus with 18 samples.

Results

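The 9 genes described here are part of the complement system: the C1q chain genes C1qa, C1qb and C1qc, the component genes C4b and C3, the anaphylatoxin receptor genes C3ar1 and C5ar1, and Itgam and Itgb2, which encode the subunits of complement receptor 3. They were chosen by name, with earlier results of these data known. They are the rows of a deposited expression table that carry these symbols, 9 of the 18683 genes listed. Complement is a cascade of blood and tissue proteins. C1q binds a target and starts the classical pathway, C4 and C3 are cleaved in turn and attach to the target, and receptors on phagocytes recognise the fragments. In brain, microglia are the main source of C1q, and C4 is made largely by glia. C1q and C3 are known for tagging synapses for removal by microglia through complement receptor 3, during development and around amyloid.

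RNA was sequenced in bulk from prefrontal cortex and hippocampus of male mice, in 6 groups of 3 libraries. Wildtype C57BL/6J mice received PBS. 5xFAD mice, which carry mutated human transgenes, APP among them, driven by a Thy1 promoter active in neurons and form amyloid plaques, received either PBS or extracellular vesicles isolated from human breast milk, below EV. All mice were injected intravenously 10 times, 1 dose every 3 days, between 5 and 6 months of age, and were perfused after behavioural tests. No group of wildtype mice given vesicles was analysed here, so the vesicle comparison exists only in 5xFAD. The labels do not say that the 3 libraries of a group are separate mice, so p-values measure the spread between these libraries, which may be technical.

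Levels are FPKM, fragments normalised to gene length and library size. Differences are of log2(FPKM + 0.5), tested with limma across all genes that reached 0.5 FPKM in at least 3 libraries of the fit, with Benjamini-Hochberg adjustment, and genes below 0.05 after adjustment were called. The added 0.5 understates the change of genes near or below 1 FPKM, here C3, C3ar1 and C5ar1. Library totals ranged from 26435439 to 36899325 reads. As a check of the genotype labels, Thy1, the gene that lends the transgenes their promoter, measured 469 FPKM in wildtype and 1098 in 5xFAD PBS prefrontal cortex, and 465.5 against 1232 in hippocampus (called in both), and App was called in neither tissue. All 14 microglial markers listed were measured in both tissues, with summed levels of 222 to 277 FPKM in wildtype prefrontal cortex and 224 to 259 in wildtype hippocampus. Choroid plexus markers, by contrast, set hippocampal libraries apart: their sum was 33.99 to 167 FPKM in wildtype, 2622 to 8930 in 5xFAD PBS and 186 to 5720 in 5xFAD EV. The 186 belongs to EV hippocampus replicate 3, which was also the shallowest library and had the highest microglial sum, 1176 FPKM. In prefrontal cortex the choroid sum reached 866 FPKM in EV replicate 3 and stayed between 4.6 and 9.51 in the wildtype and between 5.22 and 8.43 in the 5xFAD PBS libraries.

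Promoter sequence was available for 6 of the 9 genes in RefSeq's table for GRCm38.p6, another build than the one named for the FPKM values. The 250 bases before the start site are shown for a pair of C1q chain genes, because these chains moved together, for Itgam and for C3ar1, as receptor genes that moved by different amounts. Windows are C1qb at chr4:136886201-136886450 (minus strand), C1qc at chr4:136892915-136893164 (minus strand), Itgam at chr7:128062390-128062639 (plus strand) and C3ar1 at chr6:122856158-122856407 (minus strand), each written 5′ to 3′ toward the gene. Capitals mark matches to any of the motifs searched on both strands: GAGGAA (the core bound by PU.1, a transcription factor of myeloid cells), the ETS-IRF composite element, the interferon element, TTCNNNGAA (the element bound by STAT factors) and TTGCNNAA (bound by C/EBP factors). The last 4 letters of GAGGAA are those with which the ETS-IRF composite element begins, and that element ends like the interferon element, so 1 site can match more than one of them.
C1qb: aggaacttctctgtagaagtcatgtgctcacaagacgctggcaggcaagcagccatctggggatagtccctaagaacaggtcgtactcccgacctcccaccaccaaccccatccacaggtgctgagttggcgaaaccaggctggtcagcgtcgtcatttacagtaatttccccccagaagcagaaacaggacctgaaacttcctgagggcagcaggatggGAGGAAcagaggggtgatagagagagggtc
C1qc: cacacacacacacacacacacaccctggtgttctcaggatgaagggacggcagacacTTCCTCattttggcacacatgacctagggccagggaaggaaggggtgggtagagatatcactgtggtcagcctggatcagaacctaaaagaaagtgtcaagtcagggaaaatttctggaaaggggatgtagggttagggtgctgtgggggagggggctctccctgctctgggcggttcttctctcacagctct
Itgam: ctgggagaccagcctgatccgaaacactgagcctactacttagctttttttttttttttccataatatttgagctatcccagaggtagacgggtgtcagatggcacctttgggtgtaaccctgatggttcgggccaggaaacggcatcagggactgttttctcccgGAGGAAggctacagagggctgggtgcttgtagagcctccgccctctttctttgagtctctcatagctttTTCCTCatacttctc
C3ar1: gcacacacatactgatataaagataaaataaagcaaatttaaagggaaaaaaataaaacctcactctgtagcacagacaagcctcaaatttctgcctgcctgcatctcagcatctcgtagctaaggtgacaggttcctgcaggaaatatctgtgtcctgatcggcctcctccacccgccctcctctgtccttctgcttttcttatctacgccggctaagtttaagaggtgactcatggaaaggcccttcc
The C1qb window holds GAGGAA 30 bases before the start site, the C1qc window holds it once on the other strand (TTCCTC, 193 bases before), and the Itgam window holds it on each strand, 84 and 15 bases before. Neither C3ar1 nor C5ar1 had any of these letters in its window, and C3 had 1 match, to TTGCNNAA, 45 bases before its start. GAGGAA occurs in 23.3% of the 32851 promoter windows of this length, the ETS-IRF composite element in 2.3%, the interferon element in 2.98%, TTCNNNGAA in 7.02% and TTGCNNAA in 9.56%. A match is a description of letters and was not tested as a binding site.

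The first comparison asked how 5xFAD mice differed from wildtype mice when both received PBS. In prefrontal cortex 8 of the 9 complement genes rose, where 1.82% of the 13055 genes tested rose (238 genes, with 1.96% called in either direction). Of these, 7 were at or over 0.5 FPKM in every library, while C5ar1 passed the filter only through 5xFAD libraries and C3 did not pass it. With no filter, 8 of 9 were called where 1.11% of 18182 genes rose, and the median log2 difference of all 9 was 1.35, beside 0.02 over those genes. In hippocampus 7 of 9 rose, each of them at or over 0.5 FPKM in every library, where 4.19% of 13305 genes rose and 4.59% were called in either direction, and the median was 1.89 beside 0.02. The 9 genes were chosen with earlier results of these data known, so the shares beside them are a description and not a test of the set. In bulk tissue, more cells of a type and more RNA per cell cannot be told apart.

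The C1q chains were the most abundant members. C1qa measured 46.1, 63.2 and 46.5 FPKM in the wildtype and 146, 144 and 141 in the 5xFAD PBS libraries of prefrontal cortex. In hippocampus it measured 48.6, 60.9 and 56.6 in wildtype against 259, 224 and 244 in 5xFAD. Every 5xFAD library therefore lay above every wildtype library in both tissues. C1qa rose 2.77-fold in prefrontal cortex (log2 difference 1.47, SE 0.14, adjusted p = 0.000354) and 4.35-fold in hippocampus (2.12, SE 0.21, adjusted p = 0.000795). By mean FPKM it moved from rank 1249 to rank 238 of the 18683 genes in hippocampus and from 1324 to 418 in prefrontal cortex.

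C1qb and C1qc, whose products assemble with that of C1qa into the C1q molecule, followed it closely. C1qb measured 50.7, 61.6 and 43.6 FPKM in wildtype prefrontal cortex and 119, 139 and 122 in 5xFAD, a 2.44-fold rise (adjusted p = 0.000805). In hippocampus C1qb measured 47.4, 57.6 and 60.4 against 201, 209 and 225, a 3.83-fold rise (adjusted p = 0.00124). C1qc rose 2.72-fold in prefrontal cortex, from 46.7 ± 10.2 to 126 ± 4.75 (SD, n = 3 libraries; adjusted p = 0.000526 in limma), and 4.18-fold in hippocampus, from 48.2 ± 5.65 to 202 ± 8.78 (adjusted p = 0.000839). As with C1qa, no 5xFAD library of either gene reached down to a wildtype library. The ratio of C1qa to C1qb stayed between 0.91 and 1.29 across all 18 libraries, with a mean of 1.09 ± 0.0947 (SD).

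**Figure D1:**
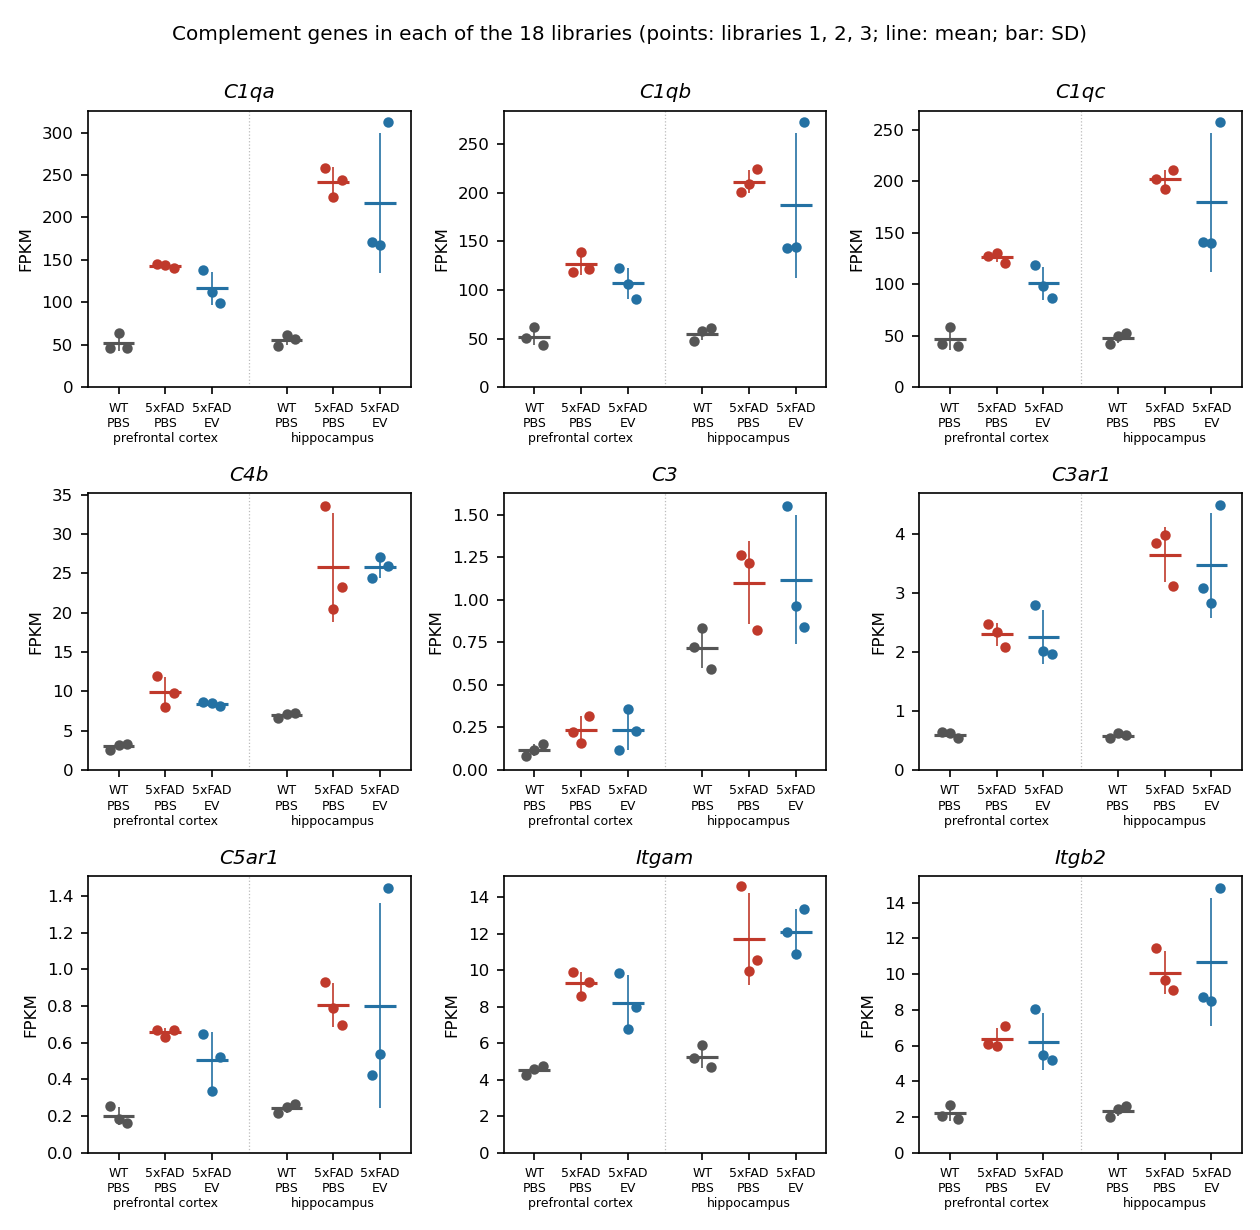
FPKM (linear axis from 0) of the 9 complement genes in all 18 libraries, by tissue and group; points are replicates 1, 2 and 3 from left to right, lines the mean and bars the SD of 3 libraries. The 3 C1q chains share one pattern, with EV hippocampus replicate 3 highest (C1qa 312 FPKM), and C4b and C3 are higher in hippocampus than in prefrontal cortex already in wildtype.

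Downstream of C1q, C4b encodes the component that C1 proteases cleave first. It measured 2.53, 3.18 and 3.25 FPKM in wildtype and 11.9, 8.02 and 9.82 in 5xFAD PBS prefrontal cortex. In hippocampus it measured 6.58, 7.11 and 7.25 against 33.6, 20.4 and 23.3. The groups did not overlap in either tissue, and the 5xFAD libraries were more spread than the wildtype ones. C4b rose 2.96-fold in prefrontal cortex (log2 difference 1.57, SE 0.14, adjusted p = 0.000254) and 3.44-fold in hippocampus (1.78, SE 0.16, adjusted p = 0.000502). Of 8 astrocyte markers 1 and 2 were called higher in the same comparisons, among them Gfap (36.3 to 139 FPKM and 130 to 413), and their part in the C4b difference was not tested. Of the 75-base stretches of its transcripts, 22.7% also occur in other genes. The near-identical gene C4a shares the most of them and has no row in the table analysed here. How shared reads were counted is not given in the sources used here.

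C3 encodes the central component on which all complement pathways converge, and its RNA was scarce. In prefrontal cortex 15 to 64 reads per library fell on it and it did not pass the filter. It measured 0.0819, 0.116 and 0.153 FPKM in wildtype and 0.224, 0.159 and 0.319 in 5xFAD PBS. These groups did not overlap, but without the filter the log2 difference was 0.25 (SE 0.12, adjusted p = 0.723). In hippocampus C3 measured 0.724, 0.835 and 0.594 in wildtype against 1.26, 1.22 and 0.822 in 5xFAD. The groups overlapped there through 5xFAD replicate 3, and the difference of 0.39 (95% interval -0.03 to 0.81) did not pass (adjusted p = 0.305). Adding the mean choroid plexus marker level to the fit as a covariate gave -0.10. That fit rests on EV replicate 3, the one 5xFAD hippocampal library with few choroid transcripts, and the part of choroid plexus was not tested.

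C3ar1 encodes the receptor for the fragment C3a. It measured 0.641, 0.624 and 0.537 FPKM in wildtype and 2.47, 2.34 and 2.09 in 5xFAD PBS prefrontal cortex, a ratio of means of 3.83. In hippocampus it measured 0.535, 0.622 and 0.594 against 3.85, 3.99 and 3.12, a ratio of 6.26. Both ratios were the highest of the 9 genes. No library overlapped between genotypes. On the log2(FPKM + 0.5) scale C3ar1 rose by 1.35 (SE 0.13, adjusted p = 0.000446) and 1.93 (SE 0.16, adjusted p = 0.000397).

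C5ar1, the receptor gene for the fragment C5a, was carried by 15 to 98 reads per library. It measured 0.254, 0.186 and 0.161 FPKM in wildtype and 0.669, 0.631 and 0.669 in 5xFAD PBS prefrontal cortex. The hippocampal values were 0.215, 0.249 and 0.265 against 0.929, 0.79 and 0.694. Genotypes did not overlap in either tissue and the ratios of means were close, 3.28 and 3.31. The gene was called in prefrontal cortex (log2 difference 0.73, SE 0.14, adjusted p = 0.0225), but not in hippocampus (0.81, SE 0.24, 95% interval 0.26 to 1.36, adjusted p = 0.107). In both tissues C5ar1 passed the filter only through 5xFAD libraries, 5 of 9, so its entry into the test depended on the groups in which it was high; without the filter its adjusted p was 0.0207 and 0.136. Neither outcome was stable: the prefrontal call was lost whichever of the 6 libraries was left out (adjusted p from 0.0636 to 0.098), and in hippocampus the gene passed when only the groups compared were fitted (adjusted p = 0.0108).

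Itgam and Itgb2 encode CD11b and CD18, the chains of complement receptor 3, which binds the C3 fragment iC3b. Itgam measured 4.27, 4.57 and 4.76 FPKM in wildtype and 9.87, 8.59 and 9.35 in 5xFAD PBS prefrontal cortex. In hippocampus it measured 5.17, 5.92 and 4.68 against 14.6, 9.96 and 10.5. It separated the genotypes in both tissues and rose 1.94-fold (adjusted p = 0.00236) and 2.1-fold (adjusted p = 0.00347). The annotation at hand places another gene model, Gm49368, over Itgam. Of the stretches of 75 bases of Itgam, 65.2% also occur in other genes. Gm49368 shares the most of them and has no row in the table analysed here.

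Both chains are also carried by neutrophils and monocytes. The summed FPKM of markers of those cells was 0.363 to 1.85 in wildtype and 2.11 to 3.78 in 5xFAD PBS prefrontal cortex, and 0.35 to 1.32 against 3.72 to 4.2 in hippocampus. Ly6g and Retnlg were at 0 in wildtype, and Ly6g also in 5xFAD PBS prefrontal cortex. Of the 10 markers, 8 in wildtype and 7 in 5xFAD PBS prefrontal cortex stayed under 0.5 FPKM in all 3 libraries, and 9 and 6 in hippocampus. Of the 3 that passed the filter, 2 were called higher in hippocampus and 0 in prefrontal cortex. Border macrophage markers summed to 5.35 to 6.83 FPKM in wildtype and 4.87 to 8.34 in 5xFAD PBS prefrontal cortex. In hippocampus they summed to 3.58 to 7.04 against 8.91 to 13.2, with 0 of 6 tested called and 4 at an unadjusted p under 0.05. The part of these cells in the receptor levels was not tested.

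Itgb2, which also pairs with other integrin chains of leukocytes, moved further than Itgam. It measured 2.08, 2.66 and 1.88 FPKM in wildtype and 6.12, 6.00 and 7.08 in 5xFAD PBS prefrontal cortex, a 2.56-fold rise (adjusted p = 0.00161). In hippocampus the values were 2, 2.47 and 2.61 against 11.5, 9.68 and 9.12, a 3.7-fold rise (adjusted p = 0.00089). The FPKM ratio of Itgam to Itgb2 was 2.1 ± 0.41 (SD, n = 3) in wildtype and 1.46 ± 0.148 in 5xFAD prefrontal cortex, and 2.26 ± 0.414 and 1.15 ± 0.124 in hippocampus. Ranges of this ratio did not overlap between genotypes in either tissue (1.72 to 2.53 against 1.32 to 1.61, and 1.79 to 2.58 against 1.03 to 1.28).

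Over the genotype comparison, 9 of 9 genes had no overlap between groups in prefrontal cortex, where 14.7% of genes tested had none, and 8 of 9 in hippocampus, where 25.5% had none. The prefrontal count includes C3, which was not among the genes tested there. Both counts include C5ar1, which passed the filter only through 5xFAD libraries. Leaving out any one library kept 7 members called in prefrontal cortex and 7 in hippocampus. In hippocampus 8 of the 12 choroid plexus markers were also called higher. With their mean as a covariate all 7 members called there stayed called and C5ar1 passed as well (adjusted p = 0.0158), while the genes called over the whole table fell in number from 611 to 266. That fit rests on EV replicate 3 as the one 5xFAD hippocampal library with few choroid transcripts.

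**Figure D2:**
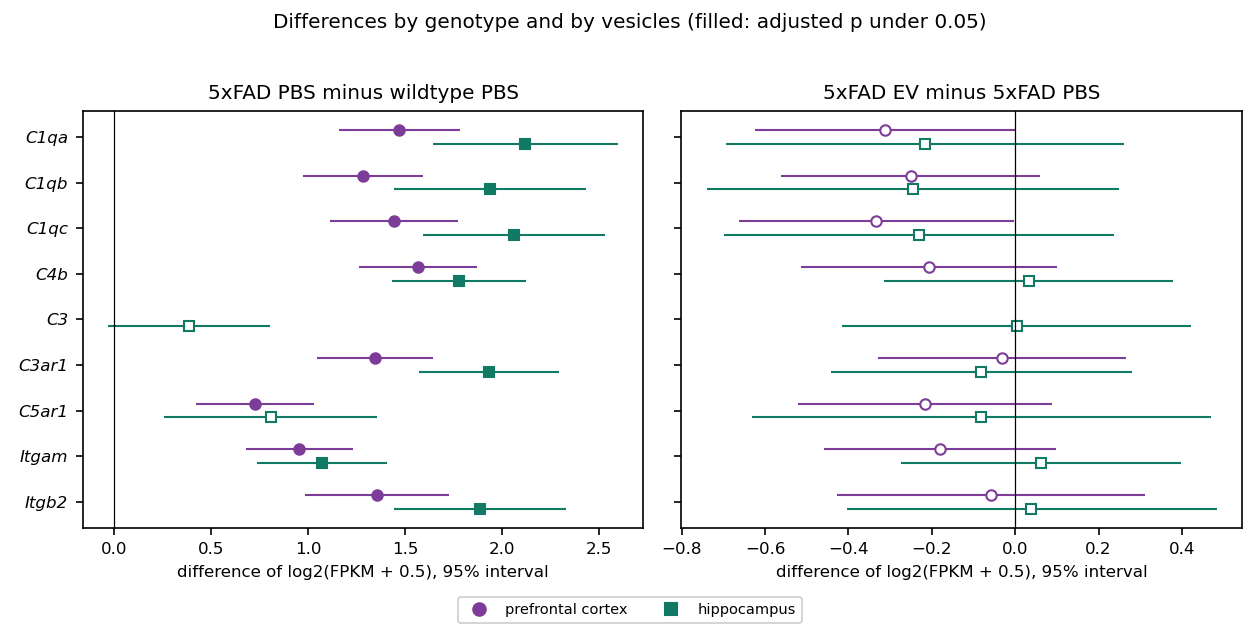
Differences of log2(FPKM + 0.5) with 95% intervals for each complement gene, between genotypes (left) and between EV and PBS in 5xFAD (right); circles are prefrontal cortex, squares hippocampus, and filled symbols have an adjusted p under 0.05. All genotype differences lie above 0 with 15 of 17 filled (C5ar1 entered only through 5xFAD libraries), and no vesicle difference is filled; C3, which did not pass the filter in prefrontal cortex, has no value there.

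The second comparison asked whether vesicles changed complement expression in 5xFAD mice. No member passed in either tissue, as no gene in the table did: limma called 0 of 13055 genes in prefrontal cortex (616 at an unadjusted p under 0.05; percent called 0) and 0 of 13305 in hippocampus (519 at an unadjusted p under 0.05), and voom on the reads recovered called 0 in both. In prefrontal cortex all 9 members had a log2 difference below 0 when fitted without the filter, with C3 at -0.004, and a median of -0.21 beside 0.01 over 18182 genes. C1qa measured 138, 112 and 99.3 FPKM with EV, all under the lowest PBS library at 141. C1qc measured 118, 97.9 and 86.4 against 127, 130 and 121, again without overlap. These were 2 of 9 members without overlap, where 10.6% of genes tested had none.

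The C1qa difference in prefrontal cortex was -0.31 (95% interval -0.624 to -0.001, adjusted p = 0.822) and that of C1qc -0.33 (95% interval -0.66 to -0.002, adjusted p = 0.822). C1qb measured 123, 107 and 90.8 FPKM with EV against 119, 139 and 122, and overlapped through EV replicate 1. Its difference was -0.25 (95% interval -0.56 to 0.06). For C4b (8.59, 8.51 and 8.16 FPKM with EV) the difference was -0.21 (-0.51 to 0.10), for C5ar1 -0.22 (-0.52 to 0.09) and for Itgam -0.18 (-0.46 to 0.10). C3ar1, at -0.03 (-0.33 to 0.27), and Itgb2, at -0.06 (-0.43 to 0.31), were nearest to 0. Microglial markers moved with the members: 13 of 14 had a lower mean with EV, none was called, and their sum was 472 to 650 FPKM with EV against 612 to 638 with PBS. Neutrophil and monocyte markers summed to 1.79 to 13.4 FPKM with EV against 2.11 to 3.78 with PBS. Their part in these differences was not tested.

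In hippocampus the EV libraries were split. C1qa measured 171 and 168 FPKM in EV replicates 1 and 2, below all PBS libraries, and 312 in replicate 3, above all of them. C1qb (144, 144 and 273 against 201, 209 and 225) and C1qc (141, 140 and 258 against 203, 193 and 211) had the same order. With all libraries the C1qa difference was -0.22 (95% interval -0.69 to 0.26, adjusted p = 0.867), that of C1qb -0.24 (-0.74 to 0.25) and that of C1qc -0.23 (-0.70 to 0.24). Without EV replicate 3 they were -0.51, -0.55 and -0.52, each with an adjusted p of 0.399. This is the library with the lowest depth, few choroid transcripts and the highest microglial sum noted above; the part of these in the C1q values was not tested.

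C5ar1 (0.423, 0.538 and 1.44 FPKM with EV), Itgb2 (8.71, 8.49 and 14.8) and C3ar1 (3.1, 2.83 and 4.5) were also above all PBS libraries in EV replicate 3. Itgam (12.1, 10.9 and 13.4) was highest there among EV libraries but stayed below PBS replicate 1 at 14.6. C4b did not follow, with 24.4, 27.1 and 25.9 FPKM inside the PBS range of 20.4 to 33.6, and a difference of 0.03 (95% interval -0.31 to 0.38). C3 measured 1.55, 0.963 and 0.842 with EV, a difference of 0.00 (-0.41 to 0.42). No member separated EV from PBS in hippocampus, where 7.51% of genes tested did. Border macrophage markers summed to 4.05 to 6.7 FPKM with EV against 8.91 to 13.2 with PBS. Of 6 tested, 0 were called and 4 had an unadjusted p under 0.05. Neutrophil and monocyte markers summed to 1.46 to 3.33 against 3.72 to 4.2. Their part was not tested. The vesicle differences were not shown to differ between tissues: limma called 0 genes for that interaction (680 at an unadjusted p under 0.05, none of them a member) and voom 0.

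EV-treated 5xFAD mice still differed from wildtype mice. In prefrontal cortex 7 of 9 members were called higher, those at or over 0.5 FPKM in every library, where 1.4% of genes were and 1.52% were called in either direction, with folds from 1.71 for Itgam (adjusted p = 0.0119) to 2.57 for C4b (adjusted p = 0.000859). C5ar1, 0.649, 0.338 and 0.523 FPKM against 0.254, 0.186 and 0.161 in wildtype, had an adjusted p of 0.125, and C3 did not pass the filter. Itgam did not pass when wildtype replicate 1 was left out (adjusted p = 0.0745) or when only the groups compared were fitted (adjusted p = 0.0527). In hippocampus 7 of 9 were called higher, where 1.93% of genes were (2.1% in either direction), from Itgam at 2.19-fold to Itgb2 at 3.81-fold (adjusted p = 0.00127); C3 (adjusted p = 0.45) and C5ar1 (adjusted p = 0.245) did not pass. Groups were without overlap for 8 of 9 members in prefrontal cortex, all but C3, where 19.3% of genes tested were, and for 9 of 9 in hippocampus, where 18.6% were. C5ar1, counted in both tissues, passed the filter only through 5xFAD libraries. This comparison shares its wildtype libraries with the genotype comparison and its EV libraries with the vesicle comparison.

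The tissues were then compared within each group. The labels do not say whether 1 mouse supplied both tissues, and the fit treated all 18 libraries as independent. In wildtype mice 2 of 9 members were higher in hippocampus, where 8.72% of 13574 genes were and 15.9% were called in either direction. These were the components C4b, 6.98 ± 0.352 against 2.99 ± 0.396 FPKM (SD, n = 3; 2.15-fold, adjusted p = 0.000102 in limma), and C3, 0.718 ± 0.121 against 0.117 ± 0.0356 (adjusted p = 0.000822), 1.97-fold on the scale with 0.5 added. C3 was at or over 0.5 FPKM in no prefrontal library and in all 9 hippocampal ones, so in this and the next comparisons of tissues it passed the filter only through the tissue in which it was high; without the filter its adjusted p in wildtype was 0.00103. C1qa (log2 difference 0.10, 95% interval -0.31 to 0.51), C3ar1 (-0.02, -0.34 to 0.29) and Itgb2 (0.08, -0.33 to 0.50) did not pass, and wildtype libraries of the tissues overlapped for each. Between the tissues in wildtype 0 of 14 microglial markers were called (2 at an unadjusted p under 0.05), while 7 of 8 oligodendrocyte markers (median log2 difference 0.74), 1 of 8 astrocyte markers (Gfap, 36.3 against 130 FPKM) and 2 of 8 meningeal fibroblast markers were higher in hippocampus. Their summed levels were 914 to 1260 against 1545 to 1788 FPKM for oligodendrocytes, 799 to 983 against 951 to 1109 for astrocytes and 26.1 to 45.2 against 47.4 to 94.2 for meningeal fibroblasts. Their part in the C4b and C3 differences was not tested.

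In 5xFAD mice given PBS 7 of 9 members were higher in hippocampus, where 15.3% of genes were (25.1% in either direction): C4b by 1.32, C3 by 1.12, C1qa by 0.75, C1qb by 0.74, C1qc by 0.68, Itgb2 by 0.62 (adjusted p = 0.0289) and C3ar1 by 0.57 on the log2 scale. Itgam (0.30, adjusted p = 0.136) and C5ar1 (0.17, adjusted p = 0.583) did not pass. Itgb2 lost its call in 4 of the 6 fits that left out a library and with libraries paired by number; C1qc lost it without 5xFAD PBS prefrontal replicate 1 or 3 and C3ar1 without hippocampal replicate 2. In EV-treated mice 8 of 9 were higher, where 8.6% of genes were (16.9% in either direction), but only 2 remained when only those groups were fitted, and 4 without EV hippocampus replicate 3. All 12 choroid plexus markers were called higher in hippocampus in 5xFAD PBS mice; their part in the tissue differences was not tested.

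Whether the genotype difference itself was larger in hippocampus was tested as an interaction. All 9 members had a positive value, with a median of 0.53 beside 0.01 over 13574 genes, but limma called none of the genes (0% called; 787 at an unadjusted p under 0.05) and voom none. Of the members, 4 had an unadjusted p under 0.05: C1qa (0.65, 95% interval 0.07 to 1.23, adjusted p = 0.788), C1qb (0.65, 0.05 to 1.25), C1qc (0.62, 0.03 to 1.21) and C3ar1 (0.59, 0.14 to 1.03, adjusted p = 0.686). C4b (0.21, -0.25 to 0.67) and Itgam (0.11, -0.32 to 0.54) lay nearer to 0. For C3 and C5ar1 the sign depended on the scale, 0.14 and 0.08 here against -0.37 and -0.02 with voom. All 14 microglial markers also had positive values in this test, with a median of 0.37 and none called.

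Microglial RNA as a whole was higher in 5xFAD mice: 12 of 14 markers were called higher in each tissue (median log2 difference 0.96 and 1.45), among them Trem2, a lipid-sensing receptor gene (9.72 to 54.6 FPKM in prefrontal cortex). Each member was therefore also expressed relative to the mean of these markers in the same library. On that scale C1qa was higher in 5xFAD PBS than in wildtype by 0.30 in prefrontal cortex and 0.58 in hippocampus, and C1qc by 0.28 and 0.52, without overlap. For C1qc in prefrontal cortex the lowest 5xFAD library, at 2.136, barely exceeded the highest wildtype one, at 2.135. The share of all genes without overlap was not computed on this scale. C1qb was higher by 0.12 and 0.39, C3ar1 by 0.18 and 0.39, Itgb2 by 0.19 and 0.34, and C4b by 0.40 and 0.23. Itgam was lower, at -0.21 and -0.48, as was C3, at -0.92 and -1.16. For genes near or below 0.5 FPKM these sizes depend on the added 0.5. Without it, C3 was at -0.26 and -1.04 and C3ar1 at 0.69 and 0.996, a setting chosen after seeing the data.

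With 3 libraries against 3 the exact permutation test (two-sided) cannot go below 0.1, and none of 36 such tests passed (lowest adjusted p = 0.2). C5ar1 had no stable sign, at -0.44 and -0.74 with the added 0.5 and at 0.49 and 0.08 without it, the latter chosen after seeing the data. Between EV and PBS the relative C1qa level differed by -0.13 in prefrontal cortex and -0.15 in hippocampus, and that of C1qc by -0.15 and -0.17. For both genes the groups were without overlap in prefrontal cortex and overlapped in hippocampus. Before the markers were subtracted the C1qa differences were -0.31 and -0.22, and the part of microglial content in them was not tested. C3ar1 in prefrontal cortex (0.15) and Itgb2 in hippocampus (0.10) were instead higher with EV on the relative scale, without overlap. Spread within groups also changed. The pooled SD of log2 levels fell from 0.27 to 0.085 for C1qa and from 0.26 to 0.1 for Itgb2. It rose from 0.2 to 0.23 for C4b and from 0.21 to 0.34 for C3.

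**Figure D3:**
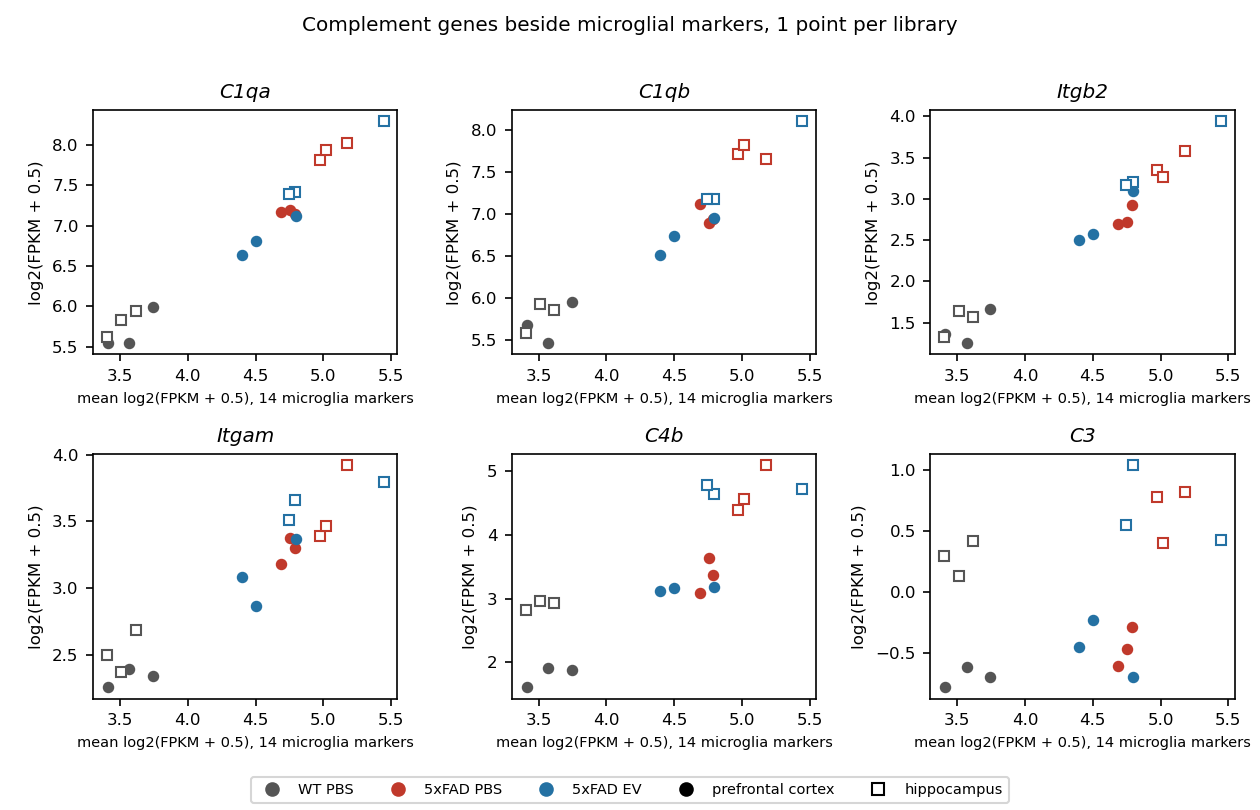
Level of 6 complement genes, log2(FPKM + 0.5), against the mean of 14 microglial markers on the same scale, 1 point per library; filled circles are prefrontal cortex, open squares hippocampus, and colours mark groups. C1qa, C1qb and Itgb2 rise with the marker mean, with EV hippocampus replicate 3 at the far end at 5.45. Relative to the markers, every hippocampal library lies above every prefrontal one for C4b (lowest -0.72 against highest -1.12). For C1qa the same holds among the 5xFAD libraries (lowest 2.63 against highest 2.48), while wildtype libraries of the tissues overlap.

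The genes whose pattern was most like each member over the 18 libraries were found by the root mean square difference of log2(FPKM + 0.5), each gene centred on its own mean, among 1238 genes with an SD of at least 0.5. For C1qa these were the cathepsin genes Ctsd (0.14), Ctss (0.14) and Ctsz (0.15), beside 0.062 between C1qa and C1qc. For C1qb they included Ctss (0.12) and Ctsz (0.14), and for C1qc they were Ctsz (0.12), Ctss (0.13) and Ctsd (0.13). C3ar1 was nearest to Ctsd, Ctsz and Slc11a1 (0.12 to 0.14), Itgb2 to Ctsd, Laptm5 and Ctsz (0.11 to 0.14), Itgam to Man2b1, Vsir and Naip2 (0.11 to 0.12), and C5ar1 to Hexa, Vav1 and Fcrls (0.2 to 0.21). For C4b the nearest was Gfap, the astrocyte filament gene, at 0.29, followed by Capg (0.40) and Lpl (0.42). These distances are larger, but the measure is not scaled to a gene's own spread. C4b had the largest SD of the members over the 18 libraries, 1.06, and C5ar1 the smallest, 0.42. C3 was nearest to Itga8, Cyp7b1 and Dsg2 (0.2 each). Laptm5 and Fcrls are also on the list of microglial markers.

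Members fell apart in the same measure, which also reflects how far each gene varied. The C1q chains, C3ar1 and Itgb2 lay within 0.062 to 0.2 of each other, Itgam lay 0.34 to 0.42 from them and C4b 0.46 to 0.54. C3 lay 0.54 to 0.78 from every other member. All these distances share the same 18 libraries and are given as a description.

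Other complement genes were taken from lists of activation genes, terminal components, regulators and receptors. Most did not pass the filter or the test between genotypes. Of 15 initiator and protease genes 14 were listed and 5 passed the filter, among them C1ra, C2 and Masp1, and limma called none by genotype in either tissue (0 and 2 at an unadjusted p under 0.05 in prefrontal cortex and hippocampus). Of the 7 terminal components, which form the membrane attack complex, none passed the filter in prefrontal cortex and 1, C8g, in hippocampus, where it was not called.

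Of 18 regulators 14 were tested. Cd59a, the membrane inhibitor of the terminal complex, rose in hippocampus from 0.889 ± 0.157 to 4.45 ± 2 (1.77, adjusted p = 0.0173). With the choroid covariate its difference was 0.38 (adjusted p = 0.693), and 3 of 6 fits without a library lost the call.

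Of 8 other receptors 5 were tested, and Itgax was the one called. It encodes CD11c, which with CD18 forms complement receptor 4. Itgax measured 0.0328 to 0.102 FPKM in wildtype and 2.5 to 4.51 in 5xFAD PBS prefrontal cortex, and 0.0328 to 0.0965 against 2.99 to 7.36 in hippocampus. It rose by 2.8 (SE 0.19, adjusted p = 6.27e-05) and 3.22 (SE 0.32, adjusted p = 0.000747) on the log2 scale. Its wildtype libraries all lay under 0.5 FPKM, so Itgax passed the filter only through the 5xFAD libraries in which it was high, here and in the comparison with EV. With EV it stood at 3.04 ± 0.577 in prefrontal cortex and 4.83 ± 2.17 in hippocampus. Itgax was higher than in wildtype by 2.61 (adjusted p = 0.00015) and 3.18 (adjusted p = 0.0012).

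**Figure D4:**
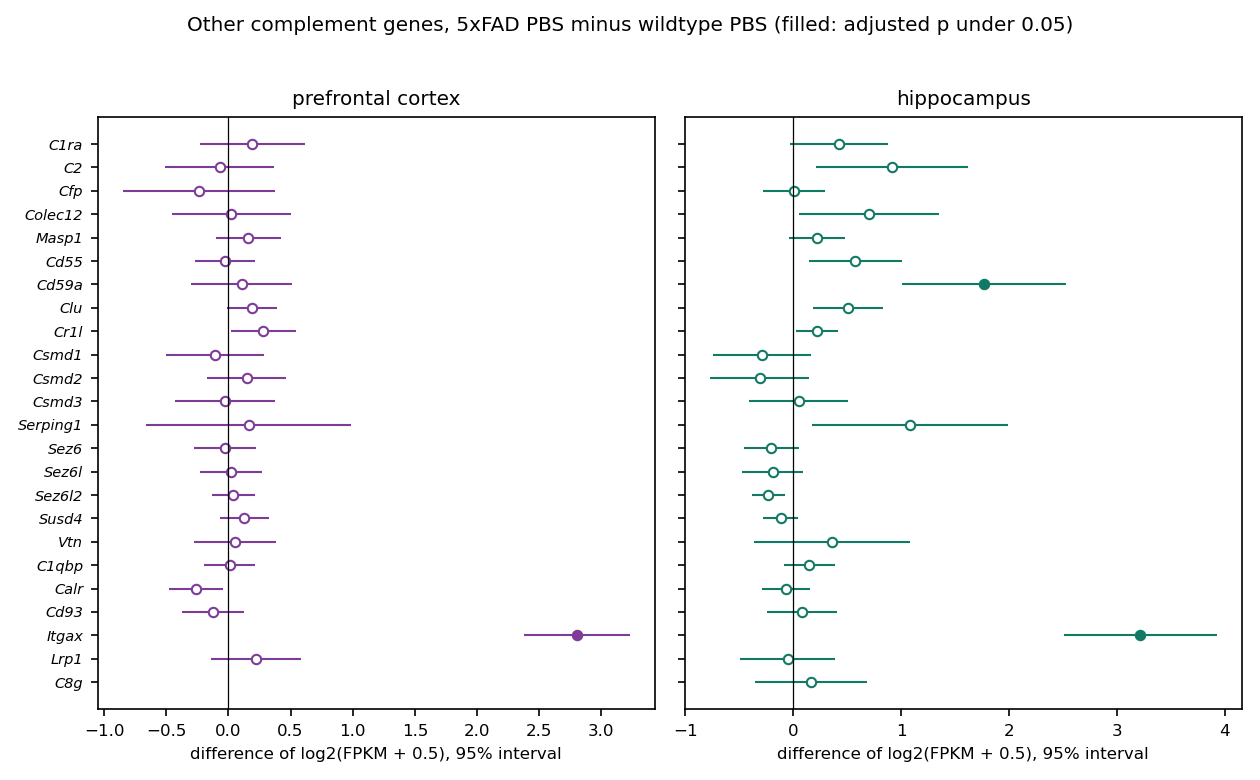
Differences of log2(FPKM + 0.5) between 5xFAD PBS and wildtype PBS with 95% intervals for other complement genes that passed the filter, in prefrontal cortex (left) and hippocampus (right); filled points have an adjusted p under 0.05. Itgax (2.8 and 3.22) is filled in both tissues and Cd59a (1.77) in hippocampus.

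Properdin, encoded by Cfp, stabilises the alternative pathway convertase. Its gene measured 0.431 to 0.532 FPKM in EV-treated 5xFAD and 0.989 to 1.05 in wildtype hippocampus, a log2 difference of -0.62 (adjusted p = 0.037). The call was lost in all 6 fits without a library and in 4 of 8 other settings (adjusted p up to 0.245). Between tissues, 4 of 14 regulators tested were higher in wildtype hippocampus: Clu (362 to 497 FPKM), Cr1l, Sez6l and Sez6l2. Of all genes tested, 8.72% were higher there and 15.9% were called in either direction. In 5xFAD PBS mice C2 (log2 difference 1.12), Colec12 (0.82), Calr (0.28), Cd55 (0.58), Cd59a (1.48), Clu (0.77), Cr1l (0.29), Serping1 (1.27), Sez6l (0.35) and Vtn (0.78) were higher in hippocampus and Csmd2 (-0.63) and Sez6 (-0.42) lower. In that comparison 15.3% of all genes tested were higher and 25.1% were called in either direction. All 12 choroid plexus markers and 4 of 8 meningeal fibroblast markers were also higher, and their part was not tested. In EV-treated mice Clu (0.73) and Sez6l (0.49) were higher, where 8.6% of all genes tested were (16.9% in either direction). Of these tissue calls, Clu in both 5xFAD groups, Cd59a in 5xFAD PBS and Sez6l and Sez6l2 in wildtype were kept in every fit that left out a library.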

How the data were processed

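Members and gene lists were chosen with earlier results of these data known. FPKM values for 18683 genes in 18 libraries were deposited by the authors; the submitters' processing notes list fastp, HISAT2, HTSeq and the GRCm39 build with no versions, and which annotation served, or whether strand was used, is not given in the sources used here. RNA was taken up in Trizol, per the labels' protocols. Groups and replicate numbers came from sample titles. Whole reads could be recovered for 99.995% of genes (relative tolerance 1e-06).

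Tests used limma 3.58.1 (R 4.3.3) on log2(FPKM + 0.5), with empirical Bayes moderation and an intensity trend, two-sided, on the 9 libraries of a tissue or, for tissue differences and interactions, all 18. Genes needed 0.5 FPKM in 3 libraries. Benjamini-Hochberg adjustment covered all genes tested. Alternatives were pseudocounts of 0.1 and 1, no filter, median-ratio scaling, voom on recovered reads, fits of only the groups compared, a replicate block, a choroid plexus covariate in hippocampus and leaving out each library. Scripts were tested on simulated data. In the genotype comparison of prefrontal cortex same-numbered libraries deviated together (correlations 0.22, 0.52 and 0.17), a pairing that comes from the values, not the labels. Named genes were all members, each other complement gene called, and the 3 nearest genes per member, except for items that are not reported here. Promoter and transcript sequences (RefSeq and GENCODE M21, GRCm38.p6) were used for letters and shared stretches only.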

Additional observations from a re-analysis of the deposited data

How the results depend on the processing

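Over the members, 678 of 696 values in other settings and 611 of 684 with a library left out kept their direction and side of the threshold. Where a value changed sign, the cause was not tested. With the choroid covariate in hippocampus, C3 by genotype was -0.10, and the vesicle differences of C4b, Itgam and Itgb2 were -0.03, -0.02 and -0.16. By genotype and tissue, C3 was -0.063 with a pseudocount of 0.1 and -0.37 with voom, and C5ar1 -0.015 with voom. Relative to microglial markers, C5ar1 by genotype was 0.488 and 0.077 with no pseudocount. Counts of called genes moved as follows: treated 5xFAD against wildtype in prefrontal cortex 118 with only the groups compared (198 before), genotype in hippocampus 266 with the choroid covariate (611), tissue in EV-treated mice 1275 genes and 2 members with only the groups compared (2297 and 8), genotype by tissue 42, none a member, with only its 4 groups (0), and vesicles by tissue 1 with no filter (0). Voom on recovered reads called 250 genes by genotype in prefrontal cortex and 542 in hippocampus. With the replicate block 8 members and 218 genes were called by genotype in prefrontal cortex; among members the block changed 1 call, Itgb2 between tissues in 5xFAD PBS (adjusted p = 0.0581). In the other comparisons at least 1 pair did not reach a correlation of 0.1, which cannot show whether same-numbered samples are related. The labels do not say whether they come from the same mouse. Between tissues in EV-treated mice 8 members were called with the block, as before. Leaving out each library in turn, genes called ranged from 142 to 218 for genotype in prefrontal cortex, 320 to 446 in hippocampus, 89 to 229 and 159 to 278 for treated 5xFAD against wildtype, 0 to 1 for vesicles in each tissue and 2140 to 3320 for tissue in 5xFAD PBS, and members from 4 to 8 for tissue in EV-treated mice; fewer libraries enter each of these fits. The same fits gave, for vesicles in prefrontal cortex, C3ar1 -0.166 to 0.041 and Itgb2 -0.241 to 0.053. For vesicles in hippocampus they gave C4b -0.12 to 0.24, C3 -0.18 to 0.13, C3ar1 -0.257 to 0.035, C5ar1 -0.41 to 0.13, Itgam -0.039 to 0.227 and Itgb2 -0.21 to 0.17. For tissue in wildtype they gave C1qb -0.027 to 0.22, C1qc -0.049 to 0.229, C3ar1 -0.064 to 0.011 and Itgb2 -0.004 to 0.20, and C5ar1 in EV-treated mice -0.024 to 0.513. For genotype by tissue Itgam ran from -0.051 to 0.215, and for vesicles by tissue C1qa from -0.20 to 0.25, C1qb -0.30 to 0.16, C1qc -0.19 to 0.25, C3 -0.18 to 0.13, C3ar1 -0.225 to 0.085, C5ar1 -0.19 to 0.34 and Itgb2 -0.15 to 0.28. The C1qb level relative to microglial markers, EV against PBS in prefrontal cortex, ran from -0.121 to 0.025. Depth limits C3 in prefrontal cortex and C5ar1, which rest on 15 to 98 reads per library.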
